A study of Danio rerio with 8 samples.

Results

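Translation initiation factors (eIF) bring the small ribosomal subunit, the initiator tRNA and the capped messenger RNA together at a start codon, and elongation factors (eEF) drive the ribosome along the message. The egg supplies both the factors and their transcripts, and the early embryo translates a stored RNA pool before its own genome is switched on. The genes described here are those whose zebrafish symbol, ignoring case, starts with eif or eef followed by a digit. The table of names held 84 such genes, 76 of them were in the expression tables, and 72 reached 1 RPKM (reads scaled to gene length and sequencing depth) in at least 1 table, of 16217 genes that did so in all. The 72 were grouped by factor complex from their symbols. Identifiers for eef2b, eef1da, EIF4A3, EIF2A, EIF2AK4, EIF3L, EEF1AKMT2 and a further EIF3H had no match in the tables and were not analysed here. The 4 genes under 1 RPKM were both identifiers named EEF1A1 (at most 0.477 and 0.0653 RPKM), eef1a2 (at most 0.223 RPKM) and the EIF3B identifier ENSDARG00000074213 (at most 0.0757 RPKM), and the compared gene nearest to that limit was eif2ak2, with at most 1.07 RPKM.

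Poly(A) RNA came from zebrafish (Danio rerio) embryos at 2 and 6 hours post fertilization (hpf), injected with a control morpholino or with a morpholino against ddx3xb, a DEAD-box RNA helicase gene. A morpholino is an antisense oligomer that blocks translation or splicing of its target RNA. The 8 libraries made 4 groups of 2 replicates: control embryos at 2 hpf, ddx3xb morphants at 2 hpf, control embryos at 6 hpf and ddx3xb morphants at 6 hpf. Titles of the control libraries name the control morpholino while their genotype reads wild type, and the genotype of 1 morphant library at 6 hpf reads ddx4xb while its title reads ddx3xb. Series text names a further age of 4 hpf, which was not analysed here, and calls the replicates biological. No source used here gives the strain, the morpholino dose or the number of embryos per library. Each group is represented by 1 RPKM value per gene, so no difference below has a replicate error or a p-value. Differences are log2 ratios of (RPKM + 1), which understate changes of low values, and the words rose and fell are kept for ratios of 2-fold or more. Pairs of values give the control embryos first and the knockdown embryos second. The target ddx3xb itself was at 274 and 251 RPKM at 2 hpf, then 141 and 322 RPKM at 6 hpf, and its paralog ddx3xa at 103 and 84.3 RPKM, then 41.8 and 115 RPKM. A morpholino need not lower its target's RNA, so these levels do not check the knockdown.

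The tables were checked with stage markers. Of 7 measured gastrula genes, none was above 0.803 RPKM at 2 hpf, and at 6 hpf they ran from 23.2 to 163 RPKM with the control morpholino and from 4.64 to 149 RPKM with the knockdown. Transcripts of 6 egg genes summed to 558 and 725 RPKM at 2 hpf and to 95.8 and 186 RPKM at 6 hpf. With the knockdown 1 of these 6 egg genes rose at 2 hpf and 3 rose at 6 hpf, beside 0.506% and 8.72% of all compared genes. At 6 hpf 2 of the 7 gastrula genes, eve1 and msgn1, fell, beside 7.87%. The part of these shifts in the results below was not tested. Markers of blood, muscle, neurons, glia and pancreas stayed at or below 0.597 RPKM except ins, at 1.16 RPKM in knockdown embryos at 6 hpf. In bulk RNA of embryos, fewer cells of a type and less RNA per cell cannot be told apart. Steps in the low values put 1 read at a median of 0.0101, 0.0121, 0.0204 and 0.0237 RPKM in control and knockdown tables at 2 hpf and then at 6 hpf, over 238 genes at 2 hpf and 282 at 6 hpf. A value of 5 RPKM thus stood for about 497, 415, 245 and 211 reads at such genes, which covers counting error only and need not hold for the genes named here.

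Translation factor transcripts were among the more abundant in every table and more so at 6 hpf. Their median level was 26.5 and 23.95 RPKM at 2 hpf, then 43.5 and 42.02 RPKM at 6 hpf, while the median of all compared genes was 5.98 and 5.12 RPKM and then 5.85 and 6.49 RPKM. Of the 72 genes, 12 and 11 were at 100 RPKM or more at 2 hpf, and 25 and 20 were at 6 hpf. Their RPKM summed to 4329 and 3889 at 2 hpf and to 9766 and 7787 at 6 hpf. Much of the later gain was 1 gene, eef1a1l1: without it the sums were 3898, 3452, 5824 and 5839 RPKM.

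**Figure D1:**
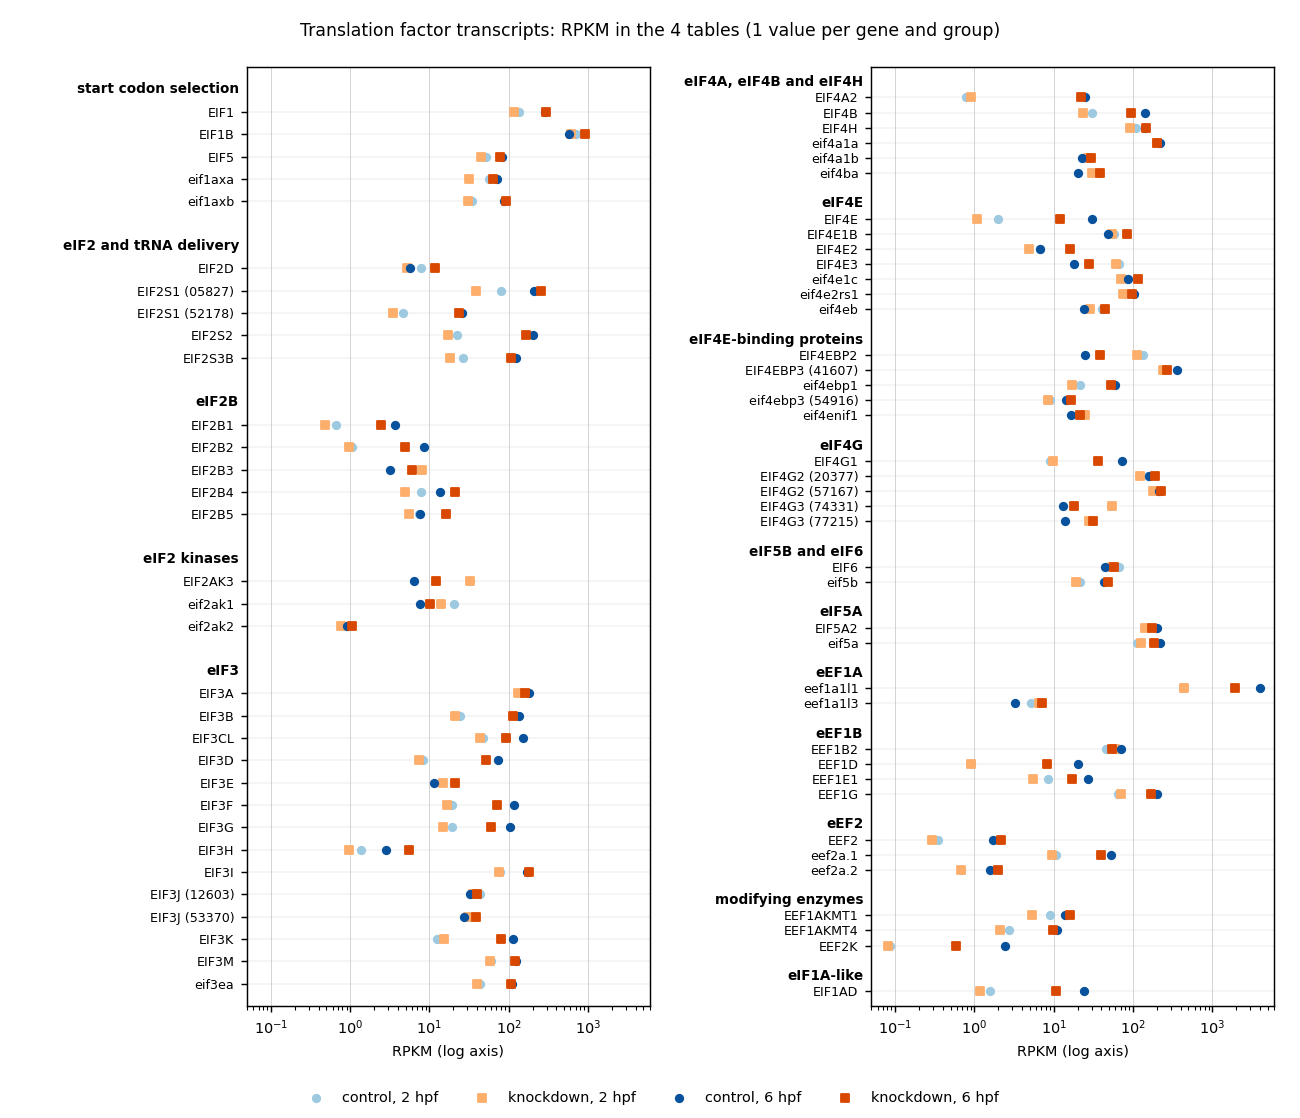
RPKM (log axis) of the 72 translation factor genes in the 4 tables, grouped by factor complex; each point is the single value of a group of 2 libraries. Most genes of eIF2, eIF3 and eEF1B lie to the right at 6 hpf in both arms, and eef1a1l1 reaches 3941 RPKM in control embryos; numbers in brackets are the last digits of the identifier where a symbol occurs more than once.

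Between 2 and 6 hpf most changes of this group were rises. In poly(A) RNA a change of tail length and a change of transcript amount cannot be told apart. In control embryos 31 of the 72 genes (43.1%) rose and 7 (9.72%) fell, where 27.5% of all compared genes rose and 28% fell. In knockdown embryos 37 (51.4%) rose and 4 (5.56%) fell, where 25.5% of all compared genes rose and 13% fell. The median log2 ratio over time was 0.64 in control and 1.02 in knockdown embryos, and that of all compared genes was -0.17 and 0.19. The classes of both arms combined as follows: 30 genes rose in both, 4 fell in both, 1 rose in control embryos only by the 2-fold rule, 3 fell in control embryos only, 7 rose in knockdown embryos only, and 27 passed 2-fold in neither. The difference between the arms was not tested, and its direction depended on the scaling. Median-ratio rescaling gave medians over time of 1.12 in control and 1.01 in knockdown embryos, beside 0.27 and 0.18 over all compared genes. Quantile normalization gave 0.76 and 0.77, beside -0.19 and -0.09. The 7 genes under 1 RPKM in control embryos at 2 hpf were EIF4A2, EIF2B1, EEF1D, EEF2, eef2a.2, EEF2K and eif2ak2. They passed the filter through their 6 hpf values alone, so each had to be higher there in at least 1 arm.

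**Figure D2:**
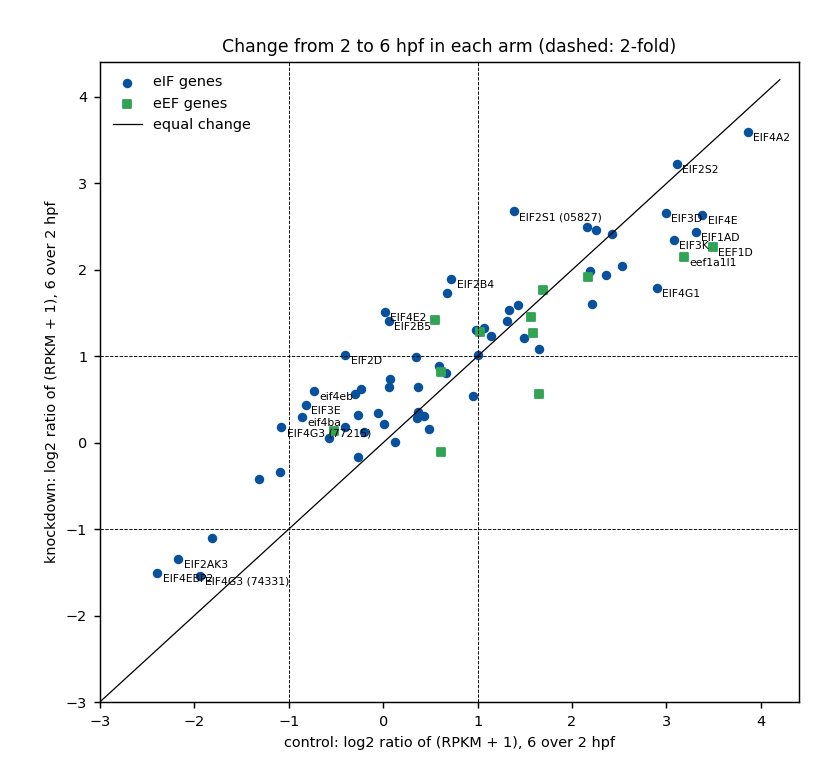
Log2 ratio of (RPKM + 1) between 6 and 2 hpf in control embryos (x axis) and in knockdown embryos (y axis); each point is 1 of the 72 genes, the solid line marks equal change and dashed lines mark 2-fold. EIF4A2 lies highest at 3.86 and 3.59, and EIF4EBP2 lowest in control embryos at -2.39. EIF4G1, EEF1D, EEF2K and eef1a1l1 lie below the solid line by more than 1. More genes lie above it by that much: EIF4E2, EIF2D, EIF2B5, eif4eb, EIF3E, EIF2B4, eif4ba, EIF3H, EIF2S1 (ENSDARG00000005827) and EIF4G3 (ENSDARG00000077215).

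The knockdown changed few of these transcripts by 2-fold. At 2 hpf none of the 72 rose, where 0.506% of all compared genes did, and 1 fell, where 0.943% did. That gene was the EIF2S1 identifier ENSDARG00000005827, an alpha subunit of eIF2. The median log2 ratio was -0.16, beside -0.12 over all compared genes, and after median-ratio rescaling both were -0.003. Ratios below 0 were found for 59 of the 72 and for 11346 of the 16217 compared genes. At 6 hpf 3 genes (4.17%) rose, beside 8.72% of all compared genes, and 5 (6.94%) fell, beside 7.87%. Shares this near the background say little about the group as such, and a small set with no gene past 2-fold says as little. The rises were EIF4E2, EIF4G3 (ENSDARG00000077215) and EIF2B5, and the falls were EIF4E, EEF1D, EIF1AD, eef1a1l1 and EEF2K, the last of which reached 1 RPKM in control embryos at 6 hpf only and so had to be lower. The median ratio of the 72 at 6 hpf was 0.03, beside 0.20 over all compared genes. After rescaling by the median ratio these medians became -0.33 and -0.09. Then no translation factor gene rose and 10 fell, beside 3.69% risen and 13.4% fallen of all compared genes.

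**Figure D3:**
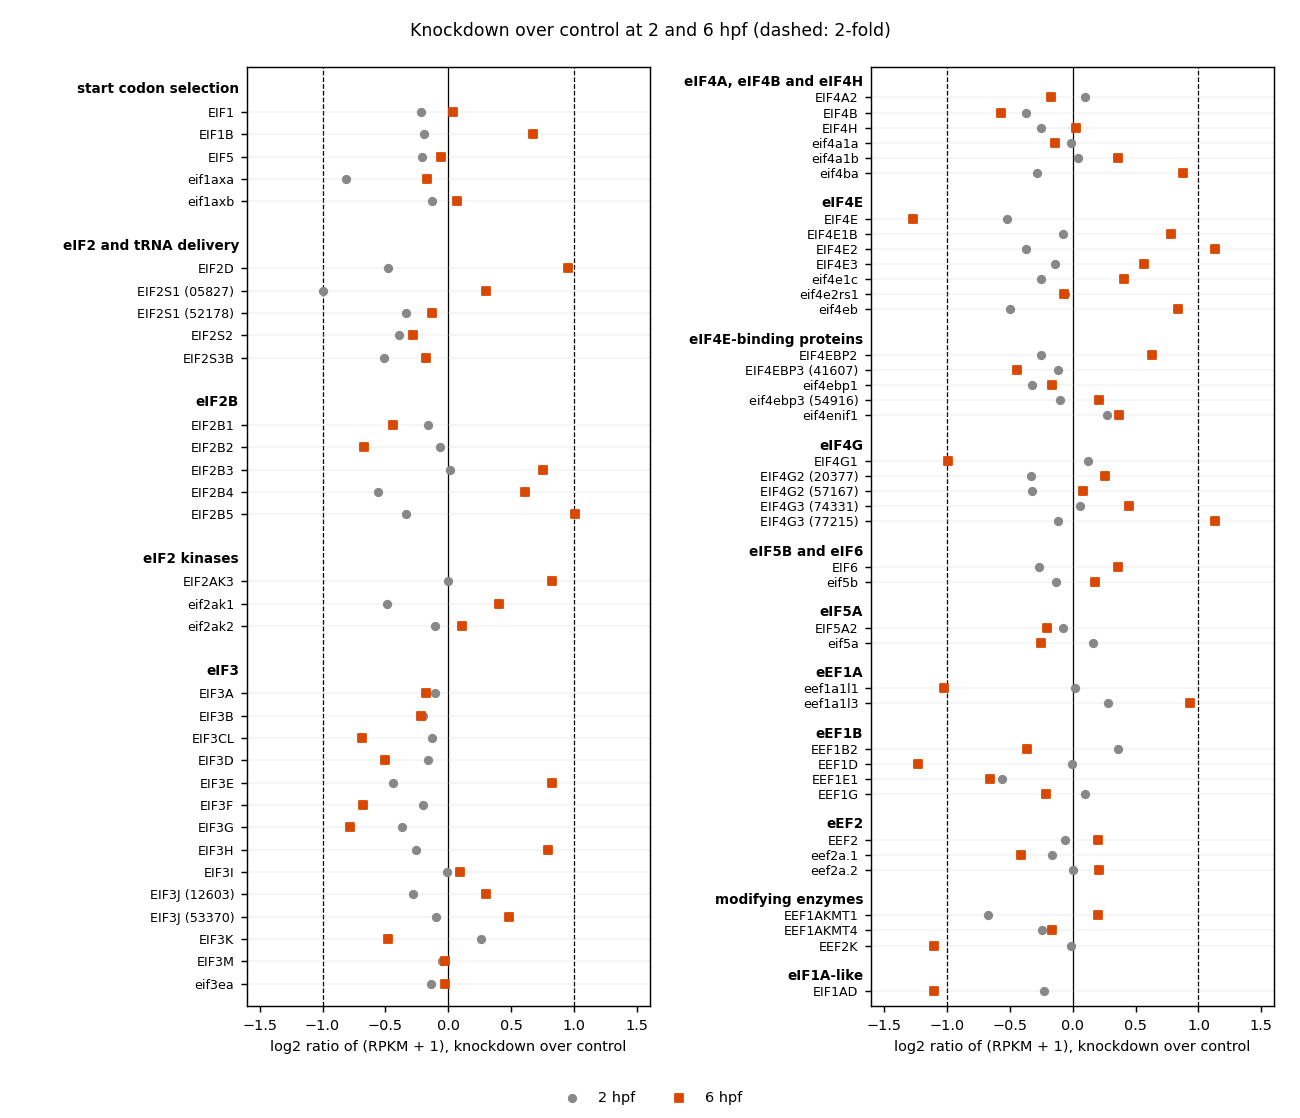
Log2 ratio of (RPKM + 1) of knockdown over control embryos at 2 hpf (grey circles) and 6 hpf (orange squares) for the 72 genes by complex; dashed lines mark 2-fold. At 2 hpf the points lie between -1 and 0.36 and at 6 hpf between -1.27 and 1.1, with paralogs of eIF4E, eIF4G and eEF1A on opposite sides of 0 at 6 hpf.

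Start codon selection rests on eIF1 and eIF1A, which hold the scanning ribosome open, and on eIF5, which triggers GTP hydrolysis by eIF2. EIF1B, a close relative of eIF1, was the most abundant transcript of the whole group at 2 hpf, with 699 and 613 RPKM, and measured 568 and 905 RPKM at 6 hpf. EIF1 itself was at 136 and 116 RPKM at 2 hpf and rose to 287 and 294 RPKM. The paralogs eif1axa (56.1 and 31.6 RPKM, then 71.9 and 63.6 RPKM) and eif1axb (33.9 and 30.96 RPKM, then 86.97 and 91.6 RPKM) differed in course, since only eif1axb rose in control embryos by the 2-fold rule. EIF5 was at 51.3 and 44.1 RPKM and then at 81.5 and 78.04 RPKM. None of these 5 passed 2-fold with the knockdown, and their ratios at 2 hpf ran from -0.81 for eif1axa to -0.13 for eif1axb. Shares over all compared genes were 0.506% risen and 0.943% fallen at 2 hpf, and 8.72% and 7.87% at 6 hpf. EIF1AD, whose product only carries a domain like eIF1A, was set apart: it rose from 1.56 and 1.18 RPKM at 2 hpf to 24.3 and 10.8 RPKM at 6 hpf, and was lower in knockdown embryos there (log2 ratio -1.1, and -0.89 with a pseudocount of 5 RPKM).

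The eIF2 complex delivers the initiator tRNA, and its alpha, beta and gamma subunits all rose over time in both arms. The beta subunit EIF2S2 went from 22.5 and 16.9 RPKM at 2 hpf to 201 and 166 RPKM at 6 hpf, a log2 ratio of 3.11 in control and 3.22 in knockdown embryos. The gamma subunit EIF2S3B was at 26.5 and 18.3 RPKM and then at 122 and 108 RPKM. Of the alpha subunit genes named EIF2S1, ENSDARG00000052178 was at 4.61 and 3.45 RPKM and then at 25.8 and 23.5 RPKM. The other, ENSDARG00000005827, was the more abundant, at 79.1 and 38.96 RPKM and then at 207 and 255 RPKM. It fell in the knockdown at 2 hpf, with a log2 ratio of -1, just past 2-fold, and stood on the other side of 0 at 6 hpf (0.30). The fall was lost under 4 of 9 alternatives, and rescaling by the median ratio gave -0.81 at 2 hpf and -0.06 at 6 hpf. Of the 9, those that change the filter or leave out the eef1a1 and eif4a1 genes cannot change the ratio of a gene they keep. EIF2D, which can deliver tRNA without GTP, was at 7.74 and 5.28 RPKM and then at 5.63 and 11.8 RPKM, short of 2-fold between the arms (0.95). All 5 genes of this set were below 0 at 2 hpf, as were 11346 of the 16217 compared genes. Every gene of the start codon selection and eIF4E sets was also below 0 there. The median of the eIF2 set was -0.48, beside -0.12 over all compared genes. After rescaling by the median ratio these medians were -0.31 and -0.003.

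eIF2B reloads eIF2 with GTP and is the step that phosphorylated eIF2 inhibits; its subunits did not move as a unit. Of the regulatory subunits, EIF2B1 (alpha) and EIF2B2 (beta) started low and rose. EIF2B1 measured 0.657 and 0.479 RPKM at 2 hpf, then 3.66 and 2.43 RPKM at 6 hpf. It passed the 1 RPKM filter at 6 hpf alone, so it had to be higher there. EIF2B2 measured 1.06 and 0.962 RPKM and then 8.52 and 4.98 RPKM. The gamma subunit EIF2B3 fell in control embryos, from 7.93 to 3.205 RPKM, and not by the 2-fold rule in knockdown embryos, from 7.98 to 6.08 RPKM. EIF2B4 (delta), also a regulatory subunit, started higher, at 7.76 and 4.93 RPKM, and was then at 13.5 and 21.04 RPKM. By the 2-fold rule it rose in knockdown embryos (log2 ratio 1.89) and not in control embryos (0.72). EIF2B5, the catalytic epsilon subunit, was level over time in control embryos (7.32 and 7.66 RPKM) and rose in knockdown embryos (5.55 and 16.4 RPKM), where it was higher than in control embryos at 6 hpf by a log2 ratio of 1.01. That call lies on the threshold and was lost under 5 of 9 alternatives, with a lowest value of 0.68. Alternatives that change only which genes are kept cannot move it. The EIF2B2 to EIF2B3 ratio within a table, which multiplying that table by 1 factor does not change, was 0.133 and 0.12 at 2 hpf and 2.66 and 0.819 at 6 hpf. This pair was picked because its members went different ways over time, so its ratios are a description.

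Kinases of eIF2 alpha, which slow initiation under stress, were the set with the largest share of falls over time among sets of 3 or more. This ranking rests on 2 of 3 genes in control and 1 of 3 in knockdown embryos. Over all compared genes 28% and 13% fell. EIF2AK3, the kinase PERK of the endoplasmic reticulum, fell from 32.4 to 6.44 RPKM in control embryos and from 32.4 to 12.2 RPKM in knockdown embryos. The heme-regulated kinase gene eif2ak1 fell from 20.3 to 7.56 RPKM in control embryos and went from 14.1 to 10.3 RPKM in knockdown embryos. eif2ak2 (PKR), the kinase of double-stranded RNA, stayed between 0.771 and 1.07 RPKM. At 6 hpf the 3 ratios of knockdown over control were 0.82, 0.40 and 0.11, none past 2-fold. The last is that of eif2ak2, which passed the 1 RPKM filter through its knockdown value at 6 hpf alone. It therefore had to be above 0.

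eIF3, the largest initiation factor, is a scaffold on the small subunit. Of its 14 compared genes 9 rose in control embryos, 10 in knockdown embryos and none fell. Over all compared genes 27.5% rose and 28% fell in control embryos, and 25.5% rose and 13% fell in knockdown embryos. EIF3A was the highest in control embryos, at 140 and 129 RPKM at 2 hpf, then 180 and 158 RPKM at 6 hpf, and so changed little over time. The rises of 4-fold or more in control embryos were EIF3K (12.4 and 15.05 RPKM, then 113 and 80.5 RPKM), EIF3D, a subunit that can bind caps (8.32 and 7.35 RPKM, then 73.2 and 51.6 RPKM), EIF3F (19.1 and 16.5 RPKM, then 115 and 71.4 RPKM), EIF3B (24.1 and 20.8 RPKM, then 134 and 114 RPKM) and EIF3G (19.3 and 14.7 RPKM, then 103 and 59.4 RPKM). EIF3CL, EIF3I, EIF3M and eif3ea rose less, with control ratios from 1 to 1.65. EIF3J, which is loosely held by the complex, had 2 identifiers that stayed between 27.35 and 43.04 RPKM. EIF3H was low throughout, at 1.37 and 0.98 RPKM and then 2.81 and 5.58 RPKM. The paralogs of the e subunit parted: eif3ea went from 43.7 and 39.7 RPKM to 110 and 107 RPKM, and EIF3E was at 20.8 and 15.03 RPKM and then at 11.4 and 20.8 RPKM. No eIF3 gene passed 2-fold with the knockdown, and the ratios at 6 hpf ran from -0.78 for EIF3G to 0.82 for EIF3E. Shares over all compared genes were 0.506% risen and 0.943% fallen at 2 hpf, and 8.72% and 7.87% at 6 hpf. After rescaling by the median ratio EIF3G (-1.14), EIF3CL (-1.06) and EIF3F (-1.05) fell, as did 13.4% of all compared genes.

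The helicase eIF4A unwinds the leader of the messenger RNA with the help of eIF4B and eIF4H. The main helicase transcript eif4a1a held steady, at 202 and 200.6 RPKM at 2 hpf, then 221 and 201 RPKM at 6 hpf, and eif4a1b stayed between 22.9 and 29.6 RPKM. Reads shared by these near-identical paralogs could not be told apart. EIF4A2 had the largest rise over time of the 72 genes on the log2(RPKM + 1) scale, from 0.774 and 0.895 RPKM to 24.7 and 21.8 RPKM. The arms were within 2-fold of each other (log2 ratio -0.17 at 6 hpf). EIF4A2 passed the 1 RPKM filter through its 6 hpf values alone, so it had to be higher there. EIF4B rose from 30.5 and 23.3 RPKM to 142 and 95.6 RPKM, while eif4ba measured 37.4 and 30.6 RPKM and then 20.2 and 37.8 RPKM. EIF4H was at 109 and 91.5 RPKM and then at 142 and 144 RPKM.

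Cap-binding eIF4E genes split by paralog. EIF4E (ENSDARG00000077012), the general cap-binding factor by its symbol, was low at 2 hpf with 2.00 and 1.09 RPKM. It rose to 30.1 RPKM in control embryos and to 11.96 RPKM under knockdown. On the log2(RPKM + 1) scale it was the largest fall in the knockdown at 6 hpf (log2 ratio -1.27). EEF2K exceeds it with a pseudocount of 0.1 RPKM (-1.86), and eef1a1l1 does so under quantile normalization (-3.67). EIF4E stayed past 2-fold under all 9 alternatives, with values from -1.62 to -1.05. Those that change only which genes are kept cannot move its ratio. EIF4E2, a paralog known for repressing translation, was at 6.65 and 4.93 RPKM and then at 6.74 and 15.9 RPKM, a rise with the knockdown (log2 ratio 1.1) that was lost with a pseudocount of 5 RPKM (0.83) and with median-ratio rescaling (0.80). EIF4E1B, the paralog typical of oocytes, was at 57.2 and 53.9 RPKM and then at 48.2 and 83.2 RPKM. The abundant eif4e1c (83.7 and 69.99 RPKM, then 87.7 and 117 RPKM) and eif4e2rs1 (78.7 and 75.6 RPKM, then 102 and 96.8 RPKM) stayed within 2-fold throughout, as did eif4eb (40.85 and 28.7 RPKM, then 24.2 and 43.9 RPKM). By its symbol eif4e2rs1 is a relative of EIF4E2, and its ratio of knockdown over control at 6 hpf was -0.07. EIF4E3 fell over time, from 66.4 to 18.25 RPKM in control embryos and from 60.3 to 27.7 RPKM in knockdown embryos. Of the summed RPKM of the 7 genes, EIF4E made up 0.596% and 0.37% at 2 hpf and 9.51% and 3.02% at 6 hpf, and EIF4E3 made up 19.8% and 20.5% and then 5.76% and 6.98%.

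Proteins that bind eIF4E and keep it from eIF4G were dominated by the identifier named EIF4EBP3 (ENSDARG00000041607), at 259 and 238 RPKM at 2 hpf, then 361 and 267 RPKM at 6 hpf. EIF4EBP2 had the largest fall over time of the 72 genes in control embryos, from 134 to 24.7 RPKM (log2 ratio -2.39), and from 112 to 38.7 RPKM in knockdown embryos (-1.51). eif4ebp1 went the other way, from 21.6 and 17.1 RPKM to 59.7 and 53.4 RPKM. The gene eif4ebp3 (9.05 and 8.41 RPKM, then 14.1 and 16.5 RPKM) and eif4enif1, whose product carries eIF4E into the nucleus (20.2 and 24.6 RPKM, then 16.6 and 21.8 RPKM), stayed within 2-fold. None of these 5 passed 2-fold between the arms, where 8.72% of all compared genes rose and 7.87% fell at 6 hpf, and fewer at 2 hpf.

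eIF4G joins the cap-binding factor, the helicase and eIF3, and its paralogs took different courses over time. EIF4G1 rose from 8.90 to 72.7 RPKM in control embryos and from 9.74 to 36.01 RPKM in knockdown embryos. At 6 hpf its ratio of knockdown over control was -0.99, just short of 2-fold, and was past it under 4 of 9 alternatives, with a lowest value of -1.35. The alternatives that change only which genes are kept cannot move this ratio. Both identifiers named EIF4G3 fell in control embryos. ENSDARG00000074331 fell in both arms, from 52.8 to 13.1 RPKM and from 54.98 to 18.2 RPKM. ENSDARG00000077215 fell from 30.5 to 13.9 RPKM in control embryos and was at 27.9 and 31.7 RPKM in knockdown embryos, so that it was higher there at 6 hpf by a log2 ratio of 1.1, or 0.96 with a pseudocount of 5 RPKM and 0.79 with median-ratio rescaling. The 2 EIF4G2 genes, relatives that do not bind eIF4E, were the most abundant of the family and stayed within 2-fold, at 222 and 177 RPKM and then 213 and 224 RPKM for ENSDARG00000057167, and at 153 and 121 RPKM and then 160.2 and 192 RPKM for ENSDARG00000020377.

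Ratios of related transcripts within a table are left as they are by any scaling that multiplies a table by 1 factor, which quantile normalization does not do. EIF4G1 over the sum of both EIF4G3 genes was 0.107 and 0.117 at 2 hpf and 2.7 and 0.721 at 6 hpf. The ratio grew 25.2-fold over time in control embryos and 6.14-fold in knockdown embryos. EIF4E over EIF4E3 was 0.0301 and 0.0181 at 2 hpf and 1.65 and 0.432 at 6 hpf. For eif4ebp1 over EIF4EBP2 the ratio was 0.162 and 0.152 and then 2.42 and 1.38, and for EIF4B over eif4ba 0.815 and 0.763 and then 7.06 and 2.53. The value of control embryos was 3.74, 3.82, 1.75 and 2.79 times that of knockdown embryos at 6 hpf in these 4 pairs, and 0.909, 1.67, 1.06 and 1.07 times at 2 hpf. The pairs were picked because their members went different ways over time, though eif4ba did not fall by the 2-fold rule (log2 ratio -0.86 in control embryos). Because the control table at 6 hpf entered that choice, both their growth over time and their difference between the arms at 6 hpf are descriptions.

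**Figure D4:**
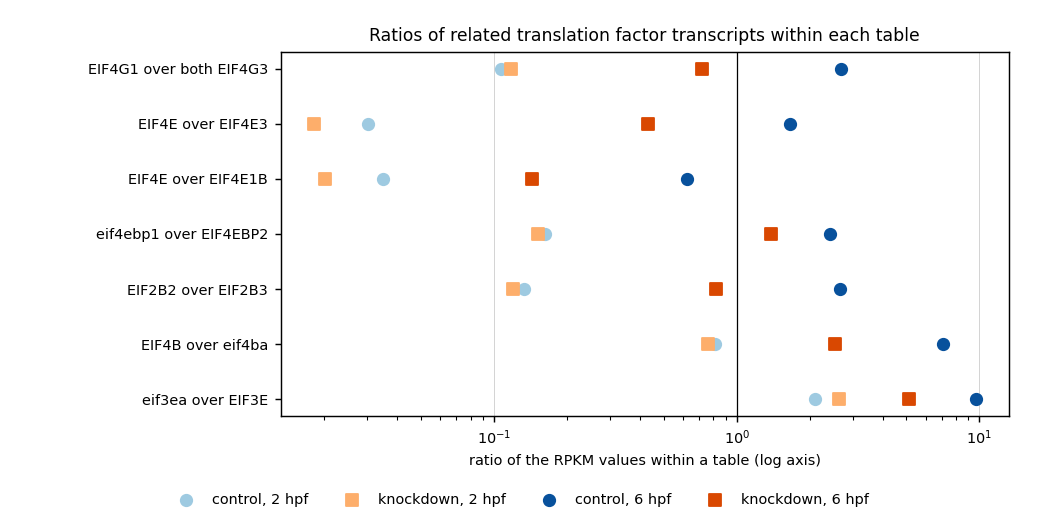
Ratio of RPKM values within each table (log axis) for 7 pairs of related translation factor genes; points are the 4 tables and the vertical line marks equal levels. All 7 ratios are larger at 6 than at 2 hpf in both arms, and at 6 hpf each is larger in control than in knockdown embryos. The pairs were picked for diverging over time, which used the control table at 6 hpf. The denominators eif4ba (-0.86), EIF3E (-0.82) and EIF4E1B (-0.24) did not fall by the 2-fold rule in control embryos.

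Ratios of knockdown over control for eif5b, EIF6 and the eIF5A genes ran from -0.27 to 0.36. eif5b, which joins the ribosomal subunits, was at 21.2 and 19.2 RPKM and then at 42.8 and 48.75 RPKM. By the 2-fold rule it rose over time in knockdown embryos (log2 ratio 1.30) and not in control embryos (0.98). EIF6, which keeps free large subunits apart, was at 65.8 and 54.3 RPKM and then at 44.15 and 56.8 RPKM. Transcripts of eIF5A, which helps the ribosome past difficult peptide bonds, were abundant: eif5a measured 114 and 127 RPKM at 2 hpf, then 220.2 and 185 RPKM at 6 hpf, and EIF5A2 149 and 141 RPKM and then 201 and 175 RPKM. None of these 4 passed 2-fold with the knockdown, where 8.72% of all compared genes rose and 7.87% fell at 6 hpf, and fewer at 2 hpf.

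Of the 9 compared genes of the eEF1A, eEF1B and eEF2 sets, 6 rose over time in each arm. Over all compared genes 27.5% rose in control embryos and 25.5% under knockdown. Among the 6 elongation factor genes that rose, EEF1D and EEF2 passed the 1 RPKM filter at 6 hpf alone and had to be higher there. With the knockdown at 6 hpf 2 of the 9 fell, eef1a1l1 and EEF1D, and none rose, beside 7.87% and 8.72% of all compared genes. eEF1A carries aminoacyl-tRNA to the ribosome, and its gene eef1a1l1 (ENSDARG00000020850) alone held 0.0999% and 0.0598% of the RPKM sum of all genes at 2 hpf and 0.854% and 0.411% at 6 hpf. The difference between the arms at 2 hpf lies in the sums, 431798 and 731302 RPKM, and not in the gene. It measured 431 and 437 RPKM at 2 hpf, then 3941 and 1948 RPKM at 6 hpf, a 9.14-fold rise in control and a 4.46-fold rise in knockdown embryos. The knockdown value at 6 hpf was lower by 1.02 on the log2 scale. This ratio remained past 2-fold under all 8 alternatives that kept the gene, with values from -3.67, under quantile normalization, to -1.01. Those of the 8 that only changed the filter could not move it, and at these levels the pseudocounts hardly could. Both -1.02 and -1.01 lie on the threshold. Quantile normalization replaces the top values of each table, where this gene lies at 6 hpf, by averages over the 4 tables. Its relative eef1a1l3 was at 5.13 and 6.44 RPKM and then at 3.28 and 7.13 RPKM (log2 ratio 0.93 at 6 hpf). Reads shared among the eEF1A genes could not be told apart.

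Within eEF1B, which reloads eEF1A with GTP, EEF1D rose most, from 0.917 and 0.913 RPKM at 2 hpf to 20.5 RPKM in control embryos and to 8.18 RPKM under knockdown, and was lower in the knockdown at 6 hpf by 1.23 on the log2 scale, or 0.95 with a pseudocount of 5 RPKM. EEF1G was at 65.1 and 69.9 RPKM and rose to 198 and 171 RPKM. EEF1E1, which was placed in this set by its symbol and belongs to the multisynthetase complex, rose from 8.58 and 5.51 RPKM to 27.3 and 16.8 RPKM. EEF1B2 measured 45.5 and 58.9 RPKM and then 69.95 and 54.45 RPKM. All 4 ratios of knockdown over control at 6 hpf lay below 0, as did those of 6315 of the 16217 compared genes. Their median was -0.51, beside 0.20 over all compared genes. Among the eEF2 genes, whose product moves the ribosome by a codon, eef2a.1 rose from 10.8 and 9.55 RPKM to 52.3 and 39.03 RPKM, while EEF2, which also rose, and eef2a.2 stayed at or below 2.15 RPKM. The level of eEF2 as a whole cannot be read from these, since eef2b was not analysed here.

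Enzymes that modify elongation factors were low. EEF2K, the kinase that inactivates eEF2, was at 0.086 and 0.0816 RPKM at 2 hpf, then 2.40 and 0.591 RPKM at 6 hpf. Its log2 ratio with the knockdown at 6 hpf was -1.1, and -0.40 with a pseudocount of 5 RPKM. EEF2K passed the 1 RPKM filter through its control value at 6 hpf alone, so it had to be lower in the knockdown there, and its fall supports nothing. The methyltransferase genes EEF1AKMT1 (9.06 and 5.31 RPKM, then 13.7 and 15.9 RPKM) and EEF1AKMT4 (2.69 and 2.12 RPKM, then 10.9 and 9.68 RPKM) did not pass 2-fold between the arms.

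The level at 2 hpf, which shares no table with the ratio at 6 hpf, was set beside that ratio after the values had been seen. Genes were split by their RPKM at 2 hpf (mean of both arms). Under 10 RPKM the median ratio of knockdown over control at 6 hpf was -0.01 over 24 translation factors and 0.06 over 9853 compared genes. In that range 2 of the 24 passed 2-fold upward and 4 downward, beside 554 and 1189 of the 9853. Between 10 and 50 RPKM the medians were -0.03 over 25 translation factors and 0.37 over 4367 genes. At 50 RPKM or more they were 0.04 over 23 translation factors and 0.36 over 1997 genes. In these upper ranges the median change from 2 to 6 hpf in control embryos was 0.98 and 0.37 for translation factors and -0.83 and -0.78 over all genes, and both ratios share the control table at 6 hpf. Whether these differences exceed the spread between replicates was not tested.

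**Figure D5:**
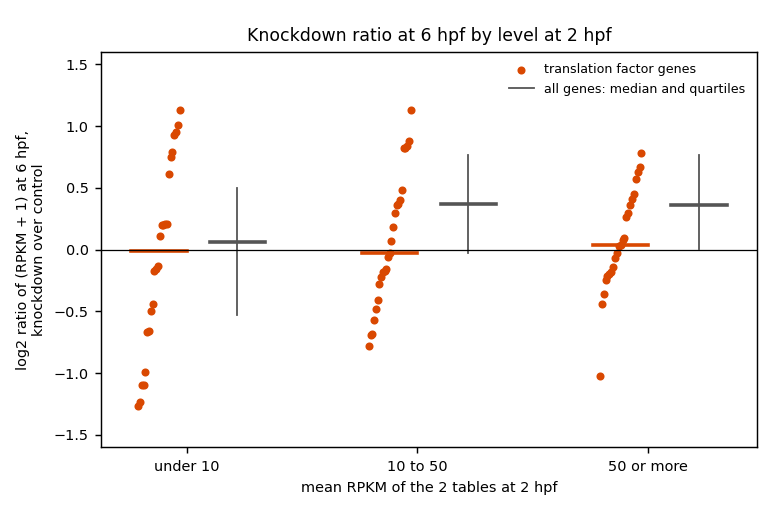
Log2 ratio of (RPKM + 1) of knockdown over control embryos at 6 hpf by the mean RPKM at 2 hpf; points are the 72 translation factor genes with their median as an orange bar, and grey bars and lines are the median and quartiles of all compared genes. In the ranges from 10 RPKM upward the orange medians (-0.03 and 0.04) lie near 0 and the grey ones at 0.37 and 0.36.

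Other genes of the pathway were taken from lists. Of 20 regulators of initiation, none passed 2-fold at 2 hpf, and 3 rose and 2 fell at 6 hpf, beside 8.72% and 7.87% of all compared genes. The rises were the target ddx3xb itself, its paralog ddx3xa, and ppp1r15b. The last codes for a partner of the phosphatase that reverses eIF2 phosphorylation and was at 13.8 and 11.5 RPKM and then at 1.29 and 4.88 RPKM. Its stress-induced relative ppp1r15a fell in the knockdown, with 13.05 and 14.6 RPKM at 2 hpf, then 180.5 and 59.03 RPKM at 6 hpf (log2 ratio -1.6), as did the stress gene DDIT3 (6.51 and 1.79 RPKM at 6 hpf). The gene atf4b, for a transcription factor whose own translation responds to eIF2 phosphorylation, rose over time in both arms alike, from 0.357 and 0.2 RPKM to 49.3 and 46.7 RPKM. Of 8 compared poly(A)-binding proteins and partners, 2 rose and none fell at 6 hpf, beside 8.72% and 7.87% of all compared genes. The median of these 8 was -0.19, beside 0.20 over all compared genes. Of the 2 that rose, PABPC1L, the paralog typical of oocytes, was at 10.3 and 10 RPKM and then at 14.2 and 41.2 RPKM. PAIP1 was at 29.2 and 23.5 RPKM and then at 5.55 and 15.6 RPKM. The main gene pabpc1a was at 407 and 395 RPKM and then at 775 and 489 RPKM.

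Genes for the hypusine on eIF5A and the diphthamide on eEF2 had 3 of 8 members risen in the knockdown at 6 hpf and none fallen, with a median of 0.48, beside 8.72% risen, 7.87% fallen and a median of 0.20 over all compared genes. The 3 are named because of their values. DPH1 was at 31.04 and 25 RPKM at 2 hpf, then 3.69 and 12.3 RPKM at 6 hpf, DPH3 at 49.5 and 39 RPKM and then at 9.83 and 21.8 RPKM, and the deoxyhypusine synthase gene DHPS at 37.4 and 29.9 RPKM and then at 15.9 and 38.4 RPKM. None of 17 genes for cytosolic aminoacyl-tRNA synthetases and their partner AIMP2 passed 2-fold with the knockdown at either age. Over all compared genes 0.506% rose and 0.943% fell at 2 hpf, and 8.72% and 7.87% did at 6 hpf. Medians of the 17 were -0.19 and 0.18, beside -0.12 and 0.20 over all compared genes. Of 9 mitochondrial translation factors 1 fell at 6 hpf, MTRF1L (8.26 and 3.45 RPKM), and none rose, beside 7.87% and 8.72% of all compared genes. Their median was 0.45, beside 0.20. Of 4 termination and recycling genes none passed 2-fold between the arms, beside the same shares over all compared genes at each age. The recycling ATPase gene ABCE1 rose over time from 43.6 and 35.4 RPKM to 114 and 92.8 RPKM.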

How the data were processed

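Poly(A) RNA of whole embryos was sequenced in 8 libraries, 2 in each of 4 groups formed from the sample titles. Per the labels' protocols the library kit was stranded. HISAT2 2.0.5, SAMtools 1.9, Trimmomatic 0.36, cutadapt 1.13 and the build Zv9 come from the submitters' processing notes; counter, strand setting and lengths used: not given in the sources used here. Deposited by the authors was 1 table of RPKM per group, with 1 value per gene for 33737 Ensembl identifiers and no header; each was assigned by the arm and age in its name. RPKM scales to each library's reads, so very abundant features lower all other values.

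Symbols came from a table of names that covered 21939 identifiers. Genes at 1 RPKM or more in any table were compared as log2 of (RPKM + 1) with Python 3.11.15 and pandas 2.3.3, and called at 2-fold. Ratios were checked on simulated tables. With 1 value per group the planned limma fit could not be run. Any member could be named; all 4 values are given for those past 2-fold with the knockdown or 4-fold over time, for the highest of each complex and for diverging paralogs, and other genes were named as the largest rise or fall of a list; ppp1r15b, DDIT3, DPH3 and DHPS were named after their values were seen, as were the paralog pairs. Members, complexes and lists were chosen with earlier results of these data known; EIF1B was moved beside EIF1, and EIF1AD set apart, after the groups were fixed. The 9 alternatives took a pseudocount of 0.1 or 5 RPKM, dropped the filter or raised it to 5 RPKM, and used median-ratio, quantile or equal-sum scaling (over all genes or those under 5000 RPKM), or left out the eef1a1 and eif4a1 genes. Changing the filter or leaving out genes cannot change the ratio of a gene that is kept. Overlapping or antisense genes cannot be told apart. No sequences or coordinates were used.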

Additional observations from a re-analysis of the deposited data

How the results depend on the processing

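No paired analysis was possible because each table holds 1 value per gene for its group, so neither a replicate block nor leaving out a replicate could be run. Each result was recomputed under 9 alternatives, and a median was taken as moved from 0.15 on the log2 scale. Over time the translation factors lay above the median of all genes in each of them, by 0.55 to 0.95 in control and 0.64 to 0.93 in knockdown embryos. With a pseudocount of 0.1 RPKM 5 genes rose at 6 hpf, beside 17.7% of all compared genes. The knockdown median over time was then 1.19, beside 0.27 over all compared genes. A pseudocount of 5 RPKM left 0 falls at 2 hpf, beside 0.117% of all compared genes. At 6 hpf it left 0 rises and 2 falls, beside 2.83% and 3.32%. Medians over time were 0.46 in control and 0.72 in knockdown embryos, beside -0.10 and 0.09. Median-ratio rescaling gave 0 falls at 2 hpf, beside 0.549% of all compared genes, and a median of -0.003 for both. At 6 hpf it gave 0 rises and 10 falls, beside 3.69% and 13.4%, and a median of -0.33, beside -0.09. Over time in control embryos it gave 4 falls, beside 18.1%, and a median of 1.12, beside 0.27. The knockdown median over time was then 1.01, beside 0.18, and so no longer above that of control embryos. Quantile normalization gave 0 falls at 2 hpf, beside 0.549% of all compared genes, and a knockdown median over time of 0.77, beside -0.09. The control median over time was 0.76, beside -0.19. Equal RPKM sums, which count features above 5000 RPKM, gave 23 falls at 2 hpf, beside 21.2% of all compared genes. The median there was -0.86, beside -0.73 over all compared genes. Over time in knockdown embryos they gave 0 falls, beside 5.56%, and a median of 1.52, beside 0.62. Without those features the sums gave 0 falls at 2 hpf, beside 0.752%, and a knockdown median over time of 0.84, beside 0.06. At 6 hpf the member median lay below that of all genes by 0.07 to 0.24, except with no filter, where it lay 0.01 above. The cause of these shifts was not tested. Replicate error is unknown, and the reads behind a value depend on gene length, which is not known here.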
